A study of Arabidopsis thaliana with 3 samples.

Results

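The leaf and the inflorescence of wild-type Arabidopsis thaliana were compared locus by locus in 1 RNA sequencing library each. The inflorescence is the shoot tip that carries buds and flowers. Of the 33857 loci listed for both organs, the 17444 (51.5%) with at least 5 FPKM in either organ were measured here. FPKM counts sequenced fragments per kilobase of transcript, scaled by the library total. Each locus was described by the ratio of leaf FPKM + 1 to inflorescence FPKM + 1. The study also sequenced siliques, the fruits, from the same plants, and these values did not enter the ratio.

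Both organs came from Col-0 plants with no mutation or transgene given in the labels, grown on plates and then in soil with 16 hours of light a day. All of these plants had been bombarded at 3 weeks with gold particles that carried no DNA, as a mock transformation, so the comparison holds no plant without that treatment. Organs were frozen 18 days later, at 5.5 weeks. The labels do not say how many plants were pooled, which leaves were taken, or which buds and flowers the inflorescence sample held. With 1 library a side, no ratio below has a replicate check, and no error or p-value was computed. In such whole-organ RNA, fewer cells of a type and less RNA per cell cannot be told apart.

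A mature leaf is mainly a photosynthetic organ that also reduces nitrate and sulphate and stores starch by day. An inflorescence holds dividing meristems, young floral organs that build walls and cuticle, anthers with pollen, and ovules. Many plant gene families have members used in vegetative cells and other members used in pollen or ovules, so members of 1 family can differ widely between these organs.

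Among loci of at least 5 FPKM, those with large ratios were more numerous on the inflorescence side and more abundant on the leaf side; among loci of at least 20 FPKM the counts were 1109 toward leaf and 997 toward inflorescence. At least 4-fold higher values were found in leaf at 1414 loci (8.11%) and in inflorescence at 2105 loci (12.1%), which makes 3519 loci (20.2%) in either direction. The leaf-higher loci had a median of 64.9 FPKM in leaf and 6.41 FPKM in inflorescence. The inflorescence-higher loci had a median of 18.5 FPKM in inflorescence and 0.603 FPKM in leaf. The leaf-higher loci supplied 30% of the summed FPKM of leaf and 5.53% of that of inflorescence. The inflorescence-higher loci supplied 17.3% of the summed FPKM of inflorescence and 0.789% of that of leaf. The other 13925 loci carried most of both libraries, 68.7% of the leaf sum and 75.9% of the inflorescence sum.

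Most loci had similar values in both organs. The log2 ratio, positive where leaf was higher, had a median of 0.06, and 10634 loci (61%) lay within 2-fold. The lower tail was the longer one, with the 5th percentile at -3.48 and the 95th at 2.46. Of the inflorescence-higher loci, 600 (28.5%) differed by at least 16-fold and 89 by at least 64-fold. Of the leaf-higher loci, 204 (14.4%) differed by at least 16-fold and 44 by at least 64-fold. A total of 13385 loci reached 5 FPKM in both organs, 2738 in inflorescence alone and 1321 in leaf alone. The 4-fold threshold cut through a continuous range, since 244 loci lay inside it and 229 outside it by less than 0.1 on the log2 scale.

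The split between the directions depended on the scaling between libraries, on the minimum, on the fold and on the added constant. The leaf share of called loci was 40.2% as deposited, 52.7% with a minimum of 20 FPKM, 49.3% at 2-fold and 47.3% with 5 added to each value. The summed FPKM of inflorescence was 0.709 of that of leaf. With leaf values scaled to the inflorescence sum, 838 loci were leaf-higher and 2474 inflorescence-higher, the leaf share was 25.3%, and the median log2 ratio moved by -0.48. With leaf values divided by 1.12, the median ratio of loci at 5 FPKM or more in both organs, the counts were 1157 and 2213, the leaf share was 34.3% and the median moved by -0.17. The direction of a ratio near 1 is therefore not read below.

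**Figure D1:**
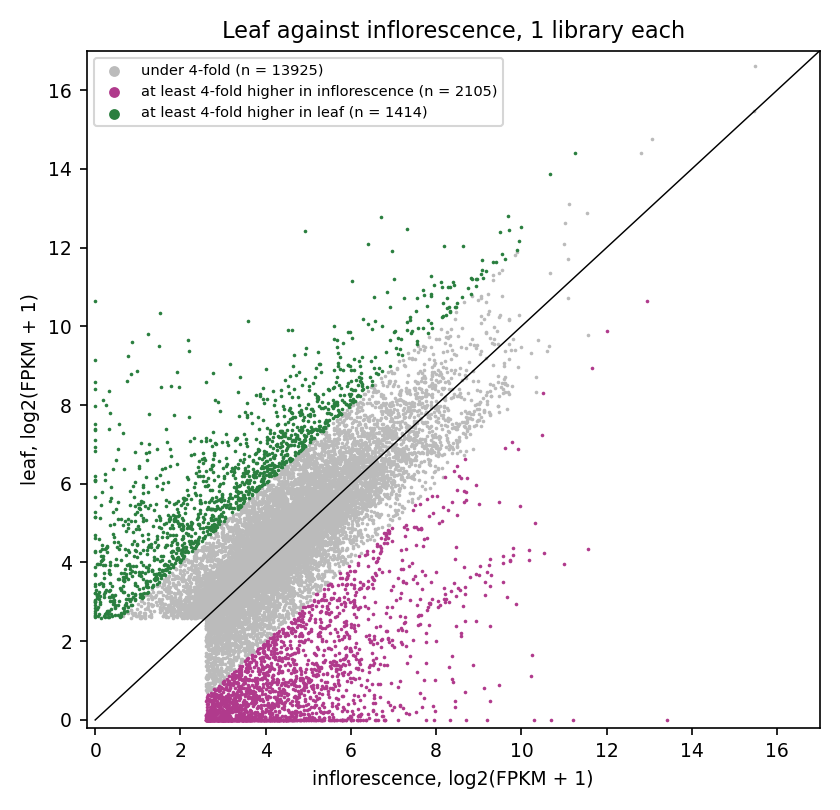
Each point is a locus with at least 5 FPKM in either organ, with inflorescence on the horizontal and leaf on the vertical axis, both as log2(FPKM + 1). The 1414 green points are at least 4-fold higher in leaf, the 2105 magenta points in inflorescence; magenta points gather at the bottom edge, where leaf is at or near 0.

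Markers of the organs lay on the sides that the labels give. Of 14 named leaf markers, genes of photosynthesis and carbon fixation, 11 exceeded 4-fold toward leaf and none toward inflorescence, with a summed 59762 FPKM in leaf and 13927 FPKM in inflorescence. Carbonic anhydrase CA2 (chromosome 5, 4757972 to 4762682) was at 1708 FPKM in leaf against 92.4 in inflorescence, and CA1 (chromosome 3, 194724 to 198019) at 4212 and 393 FPKM. Rubisco activase RCA (chromosome 2, 16570746 to 16573548) was at 7156 and 826 FPKM. The inflorescence thus held a photosynthetic transcript level that was lower than in leaf but far above 0. The 3 remaining markers, RBCS1A, RBCS3B and LHCB5, were also higher in leaf, by less than 4-fold.

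Of 14 named floral markers, 9 reached 5 FPKM, and 8 of these were at least 4-fold higher in inflorescence. The petal and stamen identity gene PI (chromosome 5, 6829042 to 6831515) was at 0.310 FPKM in leaf, compared with 141 in inflorescence. Its partner AP3 was at 0.482 and 91.9 FPKM, and A7, an anther gene, at 0.0770 and 105 FPKM. AP2, which is also active outside the flower, was the ninth, at 9.67 FPKM in leaf against 22.3 in inflorescence. The other 5 floral markers stayed under 5 FPKM in both organs. A floral marker near 0 in leaf reaches the minimum only through inflorescence, so the count over measured markers is no support for a direction. With no minimum, 9 of all 14 were inflorescence-higher and none leaf-higher. The median log2 ratio was then -3.50, against -5.32 over the 9 measured. The floral list summed to 27.8 FPKM in leaf, compared with 1025 in inflorescence.

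Root markers were low in both libraries. Of 17 named root markers, 13 stayed under 5 FPKM in both organs, 9 were listed at 0 in leaf and 5 in inflorescence, and the list summed to 35.7 FPKM in leaf against 60.7 in inflorescence. The iron transporter IRT1 was the only root marker counted as different on the deposited values, listed at 0 in leaf and at 15.0 FPKM in inflorescence; 2 were with leaf scaled to the inflorescence sum. Vascular markers split in another way. Of 16 measured members, 4 were leaf-higher and 0 inflorescence-higher, and all 4 belong to the phloem: the sucrose exporters SWEET11 and SWEET12, the sucrose loader SUC2 and the phloem lectin PP2-A1, which was at 515 FPKM in leaf, compared with 60.3 in inflorescence. The xylem proteases XCP1 and XCP2 were at 5.37 and 17.7 FPKM in leaf and at 15.7 and 41.2 FPKM in inflorescence. The list's median log2 ratio was -0.03, and 2.1 over the 7 members that reach 20 FPKM. With leaf scaled to the inflorescence sum, 3 were called, without SUC2. The part that phloem content plays in the leaf values was not tested.

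Among named loci of at least 20 FPKM, the 12 largest log2 ratios toward leaf ran from 7.88 to 10.64. Among unnamed loci, one on chromosome 3, from 6843662 to 6849497, was at 894 and 1.37 FPKM. PCC1, a gene under circadian control that pathogens induce (chromosome 3, 7845823 to 7846605), was at 778 FPKM in leaf against 0.816 in inflorescence. AT3G22235 lies a few kilobases away (chromosome 3, 7854419 to 7855814) and was at 1294 FPKM in leaf, compared with 1.86 in inflorescence, which made it the named locus with the largest log2 ratio toward leaf, 8.82, among those above 0 in both organs. LURP1, which takes part in resistance to downy mildew (chromosome 2, 6213972 to 6215901), was at 329 and 0.261 FPKM. ACD6, an ankyrin-repeat membrane protein that promotes salicylic acid signalling (chromosome 4, 8294446 to 8298602), was at 391 and 0.667 FPKM. Beside these stood AK3, an aspartate kinase at the entry to the synthesis of lysine, threonine and methionine (chromosome 3, 340546 to 343835), at 440 and 0.804 FPKM. AT1G76960 (chromosome 1, 28920457 to 28920956) was at 468 and 0.972 FPKM. The glucosinolate genes CYP79F1 and MAM1 and the defensin PDF1.2 were also among these 12, with log2 ratios of 8.49, 8.01 and 7.95. The remaining 3 of the 12 were loci near 100 bp listed at 0 in inflorescence.

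The largest ratio toward inflorescence over all loci was at an unnamed locus on chromosome 4, from 11480344 to 11482760. It was listed at 0 for leaf and at 10890 FPKM in inflorescence. Another locus has the same interval, so their separate values are uncertain. With leaf at 0 as well, this ratio is not read as a difference between the organs. Of unnamed loci above 0 in both organs, one on chromosome 2, from 8981988 to 8982712, was at 1.18 and 1191 FPKM. Among the 12 named loci with the largest ratios were a thionin, a pollen coat gene, a senescence marker and several genes with no symbol. AT5G22430 (chromosome 5, 7433790 to 7434935) was at 0.393 FPKM in leaf against 612 in inflorescence, a log2 ratio of -8.78. The thionin THI2.1 and the pollen coat oleosin GRP19 both stood at -8.59. AT1G66850 (chromosome 1, 24936958 to 24937434) was at 0.763 and 556 FPKM. MLP168, of the major latex protein family (chromosome 1, 12956159 to 12957090), was at 0.263 and 347 FPKM. The cysteine protease SAG12, known as a marker of leaf senescence (chromosome 5, 18613259 to 18614930), was at 0.406 FPKM in leaf, compared with 345 in inflorescence. AT5G38760 was at 0.169 and 252 FPKM. The other 5 of these 12 named loci were listed at 0 in leaf.

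The direction of large ratios changed with expression level. Loci were classed by the higher of their values in both organs. Among 3078 loci at 5 to 10 FPKM, 4.09% were higher in leaf and 19% in inflorescence, so leaf took 17.7% of the called loci, or 11.7% with leaf scaled to the inflorescence sum. Among 5326 loci at 20 to 50 FPKM the shares were 6.12% and 9.35%. They met at 50 to 100 FPKM, where 10.4% of 2357 loci were higher in each organ. Among 353 loci of at least 500 FPKM, 38.5% were higher in leaf and 13% in inflorescence, and leaf took 74.7% of the called loci. That share was 55.5% with leaf scaled to the inflorescence sum and 68.7% with leaf divided by the median ratio. The median log2 ratio went from -0.23 in the lowest class to 1.58 in the highest. The same order was found among loci above 0 in both organs, where the leaf share of called loci went from 21.7% to 76.6%. It was also found among named protein-coding loci, from 14.3% to 74.5%. Since 1 is added to each value, a locus at 5 FPKM cannot exceed a ratio of 6, and the lowest class leaves little room above 4-fold.

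Named examples of each level class show the range. In the class of 5 to 10 FPKM, AT3G16670 was at 9.53 FPKM in leaf and listed at 0 in inflorescence. At 10 to 20 FPKM the largest difference toward leaf was that of BFT, a relative of the florigen FT that delays flowering, at 18.3 FPKM in leaf and listed at 0 in inflorescence. At 20 to 50 FPKM the peptide gene RALFL28 was listed at 0 in leaf and at 49.9 FPKM in inflorescence. At 50 to 100 FPKM AT1G24147 was at 96.9 FPKM in leaf against 0.392 in inflorescence, and AT5G07230 was listed at 0 in leaf and at 98.1 FPKM in inflorescence.

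Among loci of at least 5 FPKM in either organ, narrow loci were called far more often than wide ones. Narrow loci listed at 0 in 1 organ reach this minimum only through the other, so they had to differ, and with no minimum the share called was 10.5% under 500 bp and 8.57% from 5000 bp upward. Width is the span of the locus on the chromosome, introns included. Of 383 loci under 500 bp, 69.7% were at least 4-fold different, 13.6% toward leaf and 56.1% toward inflorescence, and their median log2 ratio was -2.66. Of 1347 loci of 500 to 1000 bp, 44.5% were different. The share went down through 23%, 16.8% and 14% to 11.7% of 2557 loci of at least 5000 bp, where 6.3% were higher in leaf and 5.44% in inflorescence. The leaf share of called loci went from 19.5% in the narrowest class to 53.7% in the widest.

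Exact zeros were common among narrow loci. Of the 383 loci under 500 bp, 159 were listed at 0 in leaf. Over all 3213 loci of the series under 500 bp, 85.2% were listed at 0 in leaf and 69.6% in inflorescence, against 15% and 12.2% of the 3780 loci of at least 5000 bp. Without loci listed at 0 in either organ, 202 narrow loci remained, of which 42.6% were at least 4-fold different, and the median log2 ratio was -0.15. Of wide loci above 0 in both organs, 11.1% were different. Loci above 0 in both organs can also reach the minimum through 1 organ alone, and the difference in share between the classes was small with no minimum.

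The width pattern was clear up to 100 FPKM and weak above. At 20 to 50 FPKM, 68.5% of loci under 500 bp and 9.36% of loci of at least 5000 bp were different. At 500 FPKM or more the shares were 77.8% of 18 loci and 50% of 18 loci. Among loci of at least 5000 bp, inflorescence-higher loci made up 10.5% at 5 to 10 FPKM and 5.52% at 100 to 500 FPKM, while leaf-higher loci made up 2.56% and 35.9%. At 100 to 500 FPKM, leaf-higher loci outnumbered inflorescence-higher ones in each of the 4 classes from 1000 bp upward, but not in the 2 narrower ones.

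**Figure D2:**
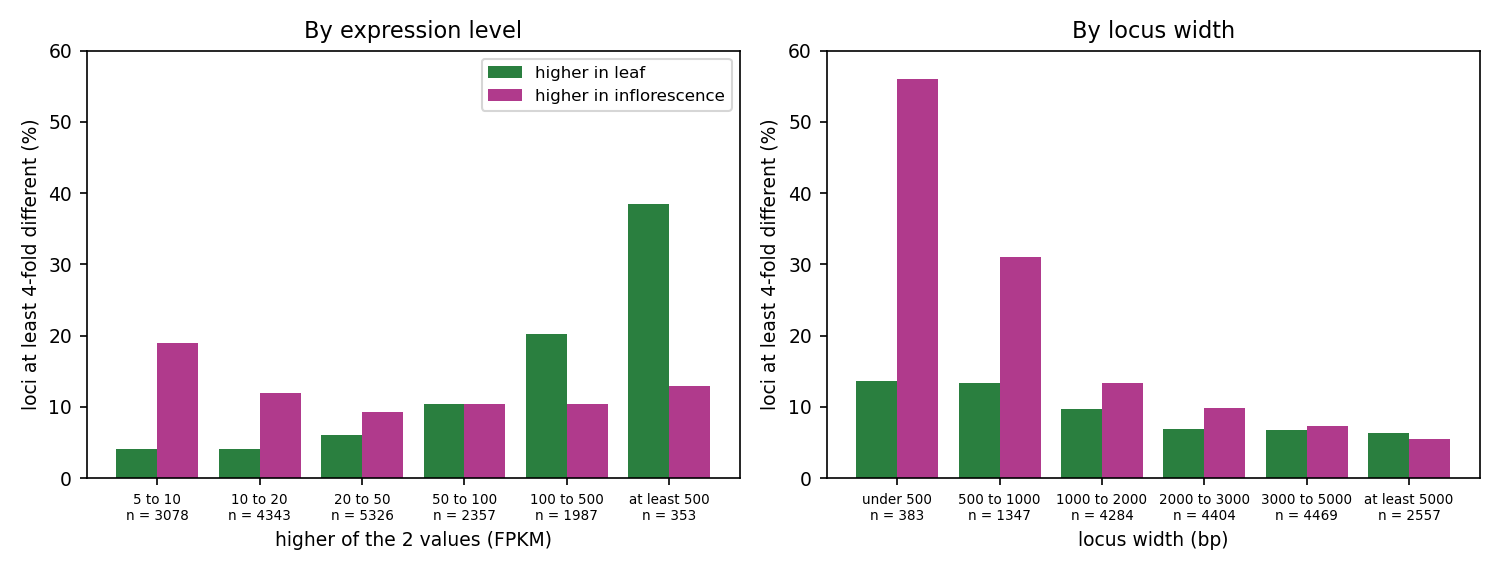
Bars give the percentage of loci at least 4-fold higher in leaf (green) or in inflorescence (magenta), by the higher of both FPKM values on the left and by locus width in bp on the right, with the number of loci under each class. Leaf-higher loci go from 4.09% to 38.5% with level, and inflorescence-higher loci go from 56.1% under 500 bp to 5.44% at 5000 bp or more.

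Among loci of at least 5000 bp, AT4G19520 had the largest ratio toward leaf of the named loci and AGO9 the largest toward inflorescence. AT4G19520 (chromosome 4, 10639269 to 10647235) was at 26.3 FPKM in leaf, compared with 0.861 in inflorescence. AGO9, an Argonaute protein that acts with small RNAs in the ovule (chromosome 5, 7192239 to 7198336), was at 0.543 FPKM in leaf against 91.5 in inflorescence.

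Loci listed at 0 in 1 organ were more frequent on the inflorescence side. Of the inflorescence-higher loci, 404 were listed at 0 in leaf, and 1251 were under 1 FPKM there. Of the leaf-higher loci, 41 were listed at 0 in inflorescence, and 259 were under 1 FPKM. A measured locus listed at 0 in 1 organ had to be called. Over all 33857 loci of the series, 10706 were listed at 0 in leaf and 7629 in inflorescence. An exact 0 in such a file can be a failed estimate. RP1, which encodes ribosomal protein L3 of the large subunit (AT1G43170, chromosome 1, 16266641 to 16268870), was listed at 0 for leaf and at 586 FPKM in inflorescence, although every cell uses proteins of this kind. At 24 loci the zero stood against at least 100 FPKM in the other organ, 13 of them at 0 in leaf and 11 at 0 in inflorescence. Several of these loci were near 100 bp wide. AT1G74929 was at 1595 FPKM in leaf and listed at 0 in inflorescence, AT2G13422 at 561 FPKM and 0, and the small nucleolar RNA SNOR105 at 341 FPKM and 0. In the other direction, the microRNA precursor MIR166d (chromosome 5, 2840628 to 2840728) was listed at 0 for leaf and at 1659 FPKM in inflorescence, and SNOR108 was listed at 0 and at 416 FPKM.

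Classes of noncoding loci differed in direction, but class was not set apart from width. The measured microRNA precursor and small nucleolar RNA loci were all under 500 bp, and most long noncoding RNA loci were under 1000 bp. Of all measured loci under 500 bp, 56.1% were inflorescence-higher and 13.6% leaf-higher. Of those of 500 to 1000 bp the shares were 31.1% and 13.4%. Of 52 loci annotated as ncRNA, the most numerous class, 9 were leaf-higher and 3 inflorescence-higher, and their median log2 ratio was 0.46. Of 29 annotated as miscellaneous RNA, 1 was leaf-higher and 13 inflorescence-higher. Of 5 microRNA precursor loci that reached 5 FPKM, 4 were higher in inflorescence, all listed at 0 in leaf and so measured only through inflorescence: MIR166d, MIR775 at 137 FPKM, MIR839 at 23.0 FPKM and MIR396a at 16.8 FPKM. MIR157c was at 5.91 FPKM in leaf, compared with 3.51 in inflorescence. Of 9 small nucleolar RNA loci, 5 were inflorescence-higher and 1 leaf-higher. In a row of 4 such loci on chromosome 4, AT4G39363 was at 41.7 FPKM in leaf against 287 in inflorescence, whereas its neighbours AT4G39361, AT4G39364 and AT4G39366 differed by less than 2-fold. Of 13 loci annotated as long noncoding RNA, 7 were inflorescence-higher and none leaf-higher. The most abundant was AT1G08283, at 17.8 FPKM in leaf, compared with 102 in inflorescence.

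By chromosome the shares were alike. On nuclear chromosomes 1 to 5, between 7.27% and 9.18% of loci were higher in leaf and between 11.6% and 12.9% in inflorescence. The median log2 ratio was 1.60 for 20 chloroplast loci and 1.65 for 13 mitochondrial loci, but 10 and 7 of them reached 5 FPKM in leaf alone. Over the loci at 5 FPKM or more in both organs, the medians were 1.54 for 9 chloroplast and 0.49 for 6 mitochondrial loci. Of the 20 chloroplast loci, 7 were leaf-higher and 1 inflorescence-higher. psaJ, which encodes a photosystem I subunit, was at 389 FPKM in leaf against 88.6 in inflorescence, and psbA, for the D1 protein of photosystem II, at 47.6 and 6.77 FPKM. rbcL, for the large subunit of Rubisco, was at 6.85 and 3.93 FPKM, whereas the nuclear leaf markers ran from 310 to 21500 FPKM in leaf. How fully the libraries captured organelle RNA was not tested, so these values are not read as organelle transcript levels.

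Shares varied along the chromosomes in windows of 1 Mb. Over 110 windows with at least 30 measured loci, leaf-higher loci made up 2.17% to 23%, and inflorescence-higher loci 4.82% to 23.5%. Inflorescence-higher loci were the more numerous in 90 windows, leaf-higher loci in 15, and the counts were equal in 5. This tally is given only for the minimum of 5 FPKM and the 4-fold rule, on which the split over all loci depended. With a minimum of 20 FPKM that split was 1109 toward leaf and 997 toward inflorescence. On chromosome 4, the window from 7 to 8 Mb held 34 leaf-higher loci of 148 (23%), and that from 2 to 3 Mb held 22.9% leaf-higher and 4.82% inflorescence-higher loci of 83. On chromosome 5, the window from 19 to 20 Mb held 2.17% and 17.9% of 184 loci. Some loci share 1 interval with others and are not separate places. Counting only loci alone at their position, the leaf-higher shares of these 3 windows were 18.8%, 21.7% and 2.04%.

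Neighbouring loci were more often in the same direction than the loci as a whole. Among loci alone at their position, 14.9% of 1084 leaf-higher loci were followed by another leaf-higher locus, against 7.97% of all 13599 such loci. For inflorescence-higher loci the value was 19.7% of 1773, against 13%. Runs of at least 3 consecutive loci numbered 42 toward leaf, with 146 loci, and 74 toward inflorescence, with 254 loci.

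The longest run toward inflorescence held 9 loci on chromosome 1, from 8341310 to 8375897. It began with AT1G23510 and ended with AT1G23670, and its loci were at 7.09 to 31.6 FPKM in inflorescence and at no more than 0.313 FPKM in leaf. AT1G23570 was the most abundant, at 0.0444 FPKM in leaf, compared with 31.6 in inflorescence. A run of 6 loci on chromosome 3, from 10805911 to 10840034, was more abundant. It held AT3G28790, at 1.61 FPKM in leaf against 465 in inflorescence, and AT3G28830, at 7.95 and 563 FPKM. The reference table gives these genes no symbol.

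The longest runs toward leaf rested on loci that share intervals. A run of 8 loci on chromosome 4, from 7880855 to 7898473, covered 3 positions, and 6 of its loci had the same interval. The most abundant of these was at 82.7 FPKM in leaf, compared with 0.587 in inflorescence. A run of 6 loci on chromosome 3, from 10447922 to 10460965, also covered 3 positions and began with UMAMIT46, an amino acid transporter family member at 86.6 FPKM in leaf against 11 in inflorescence. The other 5 loci were at 12 to 72.5 FPKM in leaf and at 1.69 to 12.5 FPKM in inflorescence, and 3 of them fall under 4-fold with leaf scaled to the inflorescence sum.

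Gene groups were described by the count of members at least 4-fold different, read against 8.11% toward leaf and 12.1% toward inflorescence over all loci, and by the median log2 ratio, read against 0.06. Either rescaling of leaf moves a log2 ratio by less than 1, so a list median of at least 1 in size could not change side. Counts with leaf scaled to the inflorescence sum are added where they move by more than 1.5 times. With that scaling, 838 of all loci were leaf-higher and 2474 inflorescence-higher, and the scaled counts are read against these. A member near 0 in 1 organ reaches the minimum only through the other, so counts and medians over measured members are no support for a direction. With 5 added in place of 1, fewer low members pass 4-fold. Over all 17444 loci, 870 were then leaf-higher and 969 inflorescence-higher, and the counts that follow are read against these. Toward leaf they fell to 1 pigment gene, 4 CRK, 3 RLP and 3 UDP-glycosyltransferase genes. Toward inflorescence they fell to 7 RALF, 2 expansin, 3 homeodomain, 2 silencing, 2 polarity and 3 gibberellin and brassinosteroid genes. The P450 counts fell to 19 and 10. Of 14 measured genes of sulphate assimilation, 7 were leaf-higher and none inflorescence-higher, and the median log2 ratio was 1.91. AKN2, an adenylylsulphate kinase (chromosome 4, 18519717 to 18521568), was at 325 FPKM in leaf, compared with 17 in inflorescence, a log2 ratio of 4.18. The low-affinity sulphate transporter SULTR2;1 was at 206 and 13.1 FPKM, and ATP sulphurylase APS1 at 980 and 89.1 FPKM. The reductive step after it was represented by the adenylylsulphate reductase APR1 at 199 and 22.9 FPKM. Cysteine synthase OASA1 was at 382 FPKM in leaf against 158 in inflorescence and stayed under 4-fold, as did the glutathione synthesis genes GSH1 and GSH2.

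Nitrogen genes went both ways. Of 20 measured, 6 were leaf-higher and 2 inflorescence-higher, and the median log2 ratio was 0.74. Nitrate reductase NIA2 (chromosome 1, 14158527 to 14161938) was at 616 FPKM in leaf, compared with 24.2 in inflorescence, while the second nitrate reductase NIA1 was at 32.4 and 20.4 FPKM. The nitrate transporter NRT1.1 was at 88.4 and 5.73 FPKM, nitrite reductase NIR1 at 165 and 23.7 FPKM, and the ferredoxin-dependent glutamate synthase GLU1 at 599 and 52.5 FPKM. Of these transcripts, that of NIA1 alone stayed under 4-fold. The opposite was found for asparagine synthetase ASN1 (chromosome 3, 17437884 to 17441243), at 9.09 FPKM in leaf against 203 in inflorescence, and for glutamate dehydrogenase GDH2, at 19.7 and 103 FPKM. Both are known to act where amino nitrogen is moved or released.

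Starch and pigment genes were higher in leaf or under 4-fold. Of 21 measured starch genes, 6 were leaf-higher and none inflorescence-higher, and the median log2 ratio was 1.58. The 3 largest ratios belonged to breakdown enzymes: the glucan water dikinase SEX1 (chromosome 1, 3581034 to 3590928) at 163 FPKM in leaf, compared with 21.5 in inflorescence, the cytosolic phosphorylase PHS2 at 267 and 38.8 FPKM, and the alpha-amylase AMY3 at 61.0 and 9.02 FPKM. The other 3 were the starch synthases SS4, at 79.5 and 12.9 FPKM, and SS1, at 85.1 and 19.4 FPKM, and DPE2, which metabolizes maltose from starch, at 131 and 26.7 FPKM. Of 20 measured genes of chlorophyll and carotenoid synthesis, 3 were leaf-higher and none inflorescence-higher, with a median of 1.08. They were the xanthophyll cycle enzymes ABA1, at 77.4 and 12.2 FPKM, and NPQ1, at 78.4 and 16.7 FPKM, and the protochlorophyllide reductase POR C, at 267 and 64.8 FPKM. With leaf scaled to the inflorescence sum, NPQ1 and POR C fell under 4-fold, which leaves 1 pigment gene, and SS1 and DPE2 did too, which leaves 4 starch genes. The early tetrapyrrole gene HEMA1 was nearly equal, at 83.8 FPKM in leaf against 86.4 in inflorescence.

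Several receptor and detoxification families had more leaf-higher than inflorescence-higher members. Of 11 measured cysteine-rich receptor-like kinases (CRK), 7 were leaf-higher and none inflorescence-higher, and the median log2 ratio was 3.17. Over all 26 named, with no minimum, the median was 1.28. CRK4 (chromosome 3, 16863149 to 16866145) was at 167 FPKM in leaf, compared with 0.247 in inflorescence, CRK21 at 14.6 and 0.0843 FPKM, and CRK6 at 19.3 and 0.636 FPKM. Another 15 named CRK genes stayed under 5 FPKM in both organs. Of 15 measured receptor-like proteins (RLP), 6 were leaf-higher and 1 inflorescence-higher. RLP19 was at 75.5 FPKM in leaf against 0.181 in inflorescence, and RLP29 was the exception, at 0.272 and 28.5 FPKM. With leaf scaled to the inflorescence sum, 3 receptor-like proteins were leaf-higher. Of 29 measured WRKY factors, regulators of many defence genes, 5 were leaf-higher and none inflorescence-higher. WRKY54 was at 45.0 and 2.72 FPKM, and its close relative WRKY70 at 346 and 46.5 FPKM. With leaf scaled, the WRKY counts were 4 and 1.

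Of 19 measured glutathione transferases, 7 were leaf-higher and 2 inflorescence-higher, and the median log2 ratio was 1.60. Over all 39 named, with no minimum, the median was 0.38. GSTF11, which is linked to glucosinolate synthesis, was at 59.1 FPKM in leaf, compared with 0.292 in inflorescence, and GSTF2 was at 344 and 14.3 FPKM. GSTU3 was an exception, at 0.171 and 8.69 FPKM. Of 23 measured UDP-glycosyltransferases, 7 were leaf-higher and 1 inflorescence-higher, among them UGT74F2, which acts on salicylic acid, at 53.5 and 4.07 FPKM. With leaf scaled, the counts were 4 and 3. Cytochrome P450 genes, oxidases of many pathways, were divided. Of 76 measured, 31 were leaf-higher and 17 inflorescence-higher. CYP83A1 of the glucosinolate pathway was at 662 and 3.63 FPKM, and CYP706A3 at 0.492 and 101 FPKM. Another 125 named P450 genes stayed under 5 FPKM in both organs.

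**Figure D3:**
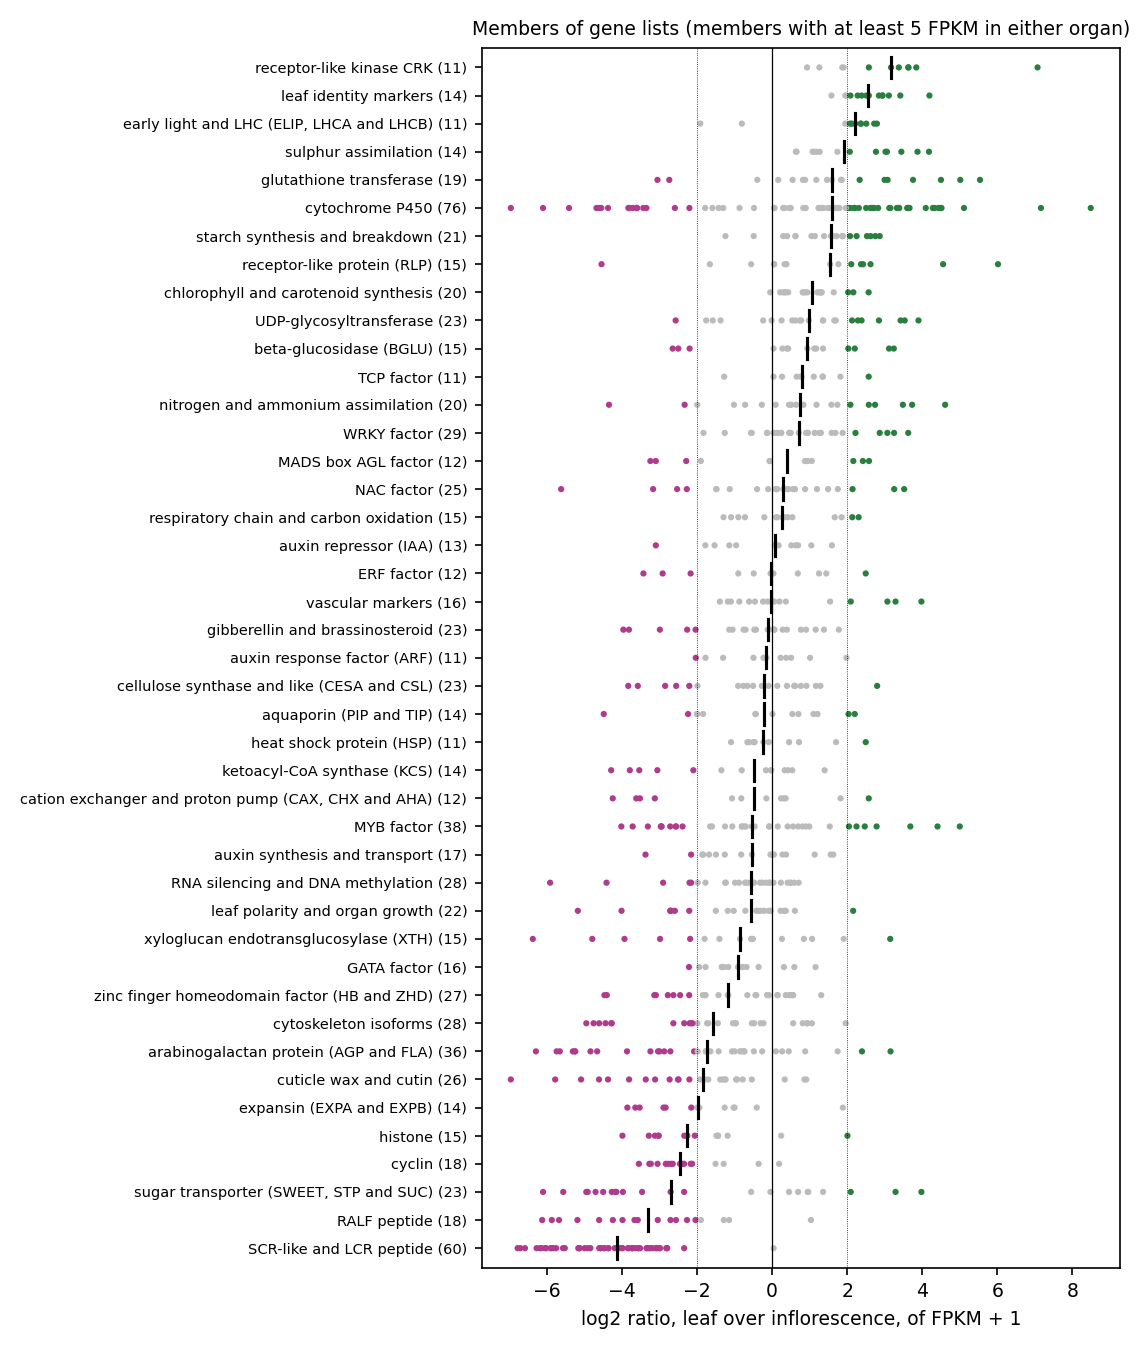
Each row is a gene list with at least 10 measured members (number in brackets); each point is a member with at least 5 FPKM in either organ, green where at least 4-fold higher in leaf, magenta where at least 4-fold higher in inflorescence and grey between, and the black bar is the median. Medians run from -4.12 for SCR-like and LCR peptides to 3.17 for the CRK receptor-like kinases; with 5 added in place of 1 they were -2.35 and 1.75.

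The SCR-like, LCR and RALF peptide families lay toward inflorescence, while of 6 measured CLE peptide genes none passed 4-fold in either direction, or 1 toward inflorescence with leaf scaled to the inflorescence sum. SCR-like (SCRL) and low-molecular-weight cysteine-rich (LCR) genes encode defensin-like peptides. Over all 104 named, with no minimum, 64 were inflorescence-higher and none leaf-higher, and the median log2 ratio was -3.05; 84 were listed at 0 in leaf and 15 in inflorescence. With the minimum, 60 remained and 59 of them were inflorescence-higher, with a median of -4.12, but 44 of these 60 were listed at 0 in leaf and so had to differ. Of the 16 above 0 in both organs, 15 were inflorescence-higher. With 5 added in place of 1, 38 of the 60 were. LCR17 (chromosome 4, 7079316 to 7080445) was at 0.199 FPKM in leaf against 124 in inflorescence, and LCR25 and LCR61 were listed at 0 in leaf and at 108 and 94.4 FPKM in inflorescence. The highest member, LCR69, was at 151 and 1440 FPKM. LCR68 was the measured member under 4-fold, at 398 FPKM in leaf, compared with 386 in inflorescence. The median width of the family's loci was 524 bp.

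RALF genes encode peptides that bind receptor kinases and control wall growth, in pollen tubes among other cells. Of 18 measured, 14 were inflorescence-higher and none leaf-higher, and the median log2 ratio was -3.31. Over all 25 named, with no minimum, the median was -2.26. The adjacent RALFL8 (chromosome 1, 22714921 to 22715448) and RALFL9 (chromosome 1, 22717060 to 22717610) had values of 18.8 and 15.6 FPKM in leaf and at 1150 and 1154 FPKM in inflorescence. These neighbours may share fragments, so their separate values are uncertain. RALFL4, which acts in pollen tubes, was at 2.97 and 143 FPKM. RALF23, a regulator of immune signalling, was the member with the highest log2 ratio, at 157 FPKM in leaf against 75.8 in inflorescence. Another short peptide gene, GASA4 (chromosome 5, 4944900 to 4946216), was at 41.9 and 1008 FPKM, while its relative GASA1 was at 855 and 312 FPKM.

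Sugar transporters were divided by member. Of 23 measured, 3 were leaf-higher and 13 inflorescence-higher. SWEET11 (chromosome 3, 18052466 to 18054755) and SWEET12 (chromosome 5, 7971651 to 7973925) release sucrose for phloem loading. Their leaf values were 799 and 475 FPKM, and they were at 49.7 and 47.6 FPKM in inflorescence. SUC2, which loads that sucrose, was at 284 and 65.5 FPKM and falls under 4-fold with leaf scaled. On the other side, SWEET10 was at 0.336 FPKM in leaf, compared with 90.3 in inflorescence. The nectary transporter SWEET9 and the anther transporter SWEET8 were listed at 0 in leaf and at 46.1 and 29.8 FPKM in inflorescence. The hexose transporters STP9 and STP11, known from pollen, were at 0.467 and 1.79 FPKM in leaf and at 37.0 and 49.2 FPKM in inflorescence. The family's median log2 ratio was -2.70 with all 23 and 0.21 without members listed at 0, so its median has no fixed direction.

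Cytoskeletal genes were inflorescence-higher or under 4-fold. Of 28 measured, 11 were inflorescence-higher and none leaf-higher, and the median log2 ratio was -1.57. The 6 largest ratios belonged to the profilins PRF5 and PRF4, the actin-depolymerizing factors ADF10 and ADF7 and the actins ACT4 and ACT12, all known as isoforms of pollen. PRF5 (chromosome 2, 8519638 to 8521192) was at 0.298 FPKM in leaf against 38.9 in inflorescence, and ACT4 at 0.261 and 26.2 FPKM. The vegetative actin ACT2 was at 498 FPKM in leaf, compared with 238 in inflorescence, and ACT7 at 301 and 372 FPKM.

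**Figure D4:**
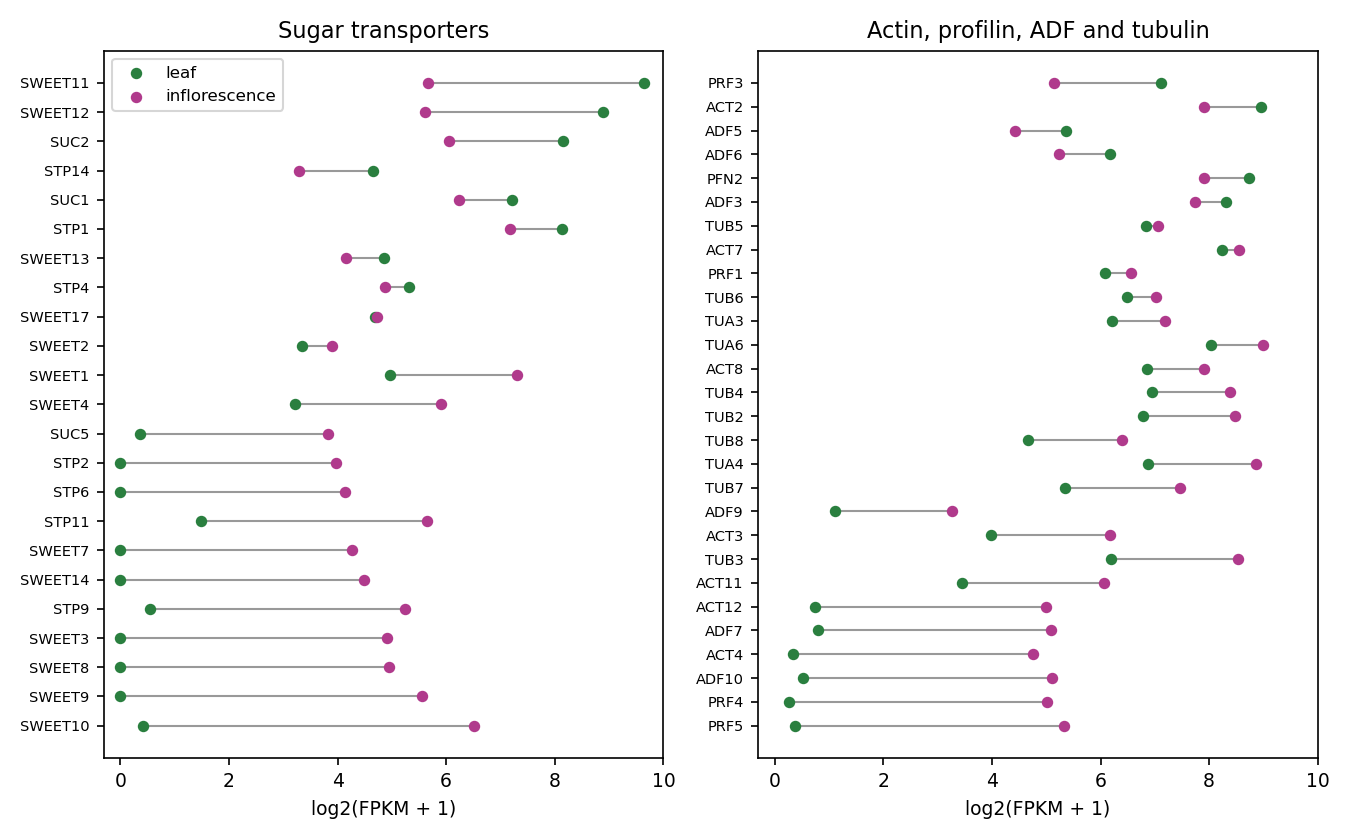
Leaf (green) and inflorescence (magenta) values of each measured sugar transporter on the left and cytoskeletal gene on the right, as log2(FPKM + 1), ordered by ratio. SWEET11 stands at 799 FPKM in leaf against 49.7 in inflorescence, while SWEET10 and the pollen isoforms from ACT12 down to PRF5 are near 0 in leaf.

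Several wall families and the cuticle genes lay toward inflorescence. Of 23 measured cellulose synthase and related genes, however, 5 were inflorescence-higher and 1 leaf-higher, and their median log2 ratio was -0.20. Of 14 measured expansins, proteins that loosen walls, 6 were inflorescence-higher and none leaf-higher, and the median log2 ratio was -1.97. With leaf scaled, or divided by the median ratio, 9 were called. Over all 26 named, with no minimum, the median was -1.01. EXPA15 was at 1.89 FPKM in leaf against 40.7 in inflorescence. Of 36 measured arabinogalactan proteins, 15 were inflorescence-higher and 2 leaf-higher (20 and 1 with leaf scaled), with a median of -1.74. With no minimum, the median over all 42 named was -1.53. AGP23 (chromosome 3, 21384204 to 21384572) was at 18.1 and 1486 FPKM, and AGP40 at 10.4 and 568 FPKM, whereas FLA13 was at 145 and 15.4 FPKM. Of 15 measured xyloglucan endotransglucosylases, 5 were inflorescence-higher and 1 leaf-higher. Their median was -0.85, and -0.70 over all 28 named with no minimum. XTH9 was at 45.7 and 709 FPKM, and XTH31 at 8.08 and 0.0238 FPKM.

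Of 26 measured genes of wax and cutin, 12 were inflorescence-higher and none leaf-higher, and the median log2 ratio was -1.85. With no minimum, the median over all 27 named was -1.78. The largest ratio was that of CYP96A15, the mid-chain alkane hydroxylase of stem wax (chromosome 1, 21383916 to 21385709), at 0.596 FPKM in leaf, compared with 197 in inflorescence. PEL3, an acyltransferase needed for cutin (chromosome 5, 8076329 to 8079793), was at 2.97 and 216 FPKM, and GPAT6, which acts in petal cutin, at 1.75 and 92.2 FPKM. The cutin hydroxylase CYP77A6 was at 1.29 and 54.8 FPKM. The wax genes CER1 and KCS6 differed less. CER1 was at 130 FPKM in leaf against 249 in inflorescence, and the elongase KCS6 at 550 and 434 FPKM.

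Genes of cell division also lay toward inflorescence. Of 18 measured cyclins, 14 were inflorescence-higher and none leaf-higher, and the median log2 ratio was -2.44. With 5 added in place of 1 the values were 3 and -1.41. Over all 22 named, with no minimum, 14 were inflorescence-higher and none leaf-higher, and the median was -2.36. CYCD3;3 (chromosome 3, 18565134 to 18566780) was at 4.46 FPKM in leaf, compared with 62.6 in inflorescence, and CYCA2;3 at 1.40 and 22 FPKM. CYCD2;1 was nearly equal, at 10.5 and 9.1 FPKM. Of 15 measured histones, 9 were inflorescence-higher and 1 leaf-higher, with a median of -2.26. HTA11, an H2A.Z histone, was at 6.3 and 114 FPKM, and HTB2, an H2B histone, at 46.8 and 414 FPKM. The exception, HIS1-3, a linker histone induced by drought whose call ends under both rescalings, was at 95.9 FPKM in leaf against 23.1 in inflorescence.

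Of 28 measured genes of RNA silencing and DNA methylation, 5 were inflorescence-higher and none leaf-higher, and the median log2 ratio was -0.55. Beside AGO9 they were AGO5, an Argonaute of reproductive cells, at 0.0501 FPKM in leaf, compared with 21.2 in inflorescence, the methylation cofactor VIM1 at 1.47 and 17.4 FPKM, the methyltransferase CMT3 at 3.40 and 19.1 FPKM, and the chromatin remodeller CHR1 (DDM1) at 1.39 and 9.62 FPKM. AGO1, the main microRNA Argonaute, was at 41.5 and 77.1 FPKM, and RDR6 at 17 and 14.2 FPKM.

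Transcription factor families were mixed. Of 38 measured MYB factors, 7 were leaf-higher and 10 inflorescence-higher, but 4 and 2 with 5 added in place of 1, and 4 and 1 of the 15 that reach 20 FPKM. The related MYB48 and MYB59 were at 71.6 and 45.6 FPKM in leaf and at 1.27 and 1.19 FPKM in inflorescence, and MYB101, known from pollen tubes, at 0.671 and 25.9 FPKM. Of 27 measured homeodomain factors, 8 were inflorescence-higher and none leaf-higher, among them HB33 at 1.68 and 55.5 FPKM. Of 25 measured NAC factors, 3 were leaf-higher and 4 inflorescence-higher, but 2 and 1 with 5 added and 3 and 2 of the 14 that reach 20 FPKM. NAC025 was listed at 0 in leaf and at 47.9 FPKM in inflorescence, and NAC036 was at 51.1 and 3.54 FPKM. The iron-deficiency regulator BHLH101 was at 20.7 FPKM in leaf against 0.119 in inflorescence, and its partner BHLH100 at 6.92 and 0.362 FPKM. Among MADS factors, AGL20 (SOC1), which promotes flowering, was at 191 and 30.9 FPKM, and AGL6 at 0.725 and 13.7 FPKM.

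Of 17 measured genes of auxin synthesis and transport, 2 were inflorescence-higher and none leaf-higher: the kinase PID, which sets the polarity of auxin exporters, at 1.42 FPKM in leaf, compared with 24 in inflorescence, and the importer LAX2 at 4.48 and 23.4 FPKM. That share is near the 12.1% over all loci. With leaf scaled to the inflorescence sum, 5 were called. Of 23 measured gibberellin and brassinosteroid genes, 5 were inflorescence-higher and none leaf-higher. RGL2, a DELLA repressor, was at 0.914 and 28.7 FPKM, the synthesis enzyme GA20OX2 at 0.374 and 18.2 FPKM, and the catabolic enzyme GA2OX2 at 4.80 and 44.9 FPKM. The cytokinin response regulator ARR4 stood on the leaf side, at 137 and 24.6 FPKM, a call that ends with leaf scaled to the inflorescence sum.

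Among genes of organ polarity and growth, 7 of 22 measured were inflorescence-higher and 1 leaf-higher, and the median log2 ratio was -0.56. The list includes floral YABBY genes, and CRC, of the carpel and nectary, was at 0.126 FPKM in leaf against 39.5 in inflorescence. INO, of the ovule, was listed at 0 in leaf and at 15.1 FPKM in inflorescence. YAB5, a YABBY gene of leaves whose call ends under both rescalings, was at 40.7 FPKM in leaf, compared with 8.31 in inflorescence. ARGOS, which promotes organ growth, was at 0.846 and 11.1 FPKM.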

How the data were processed

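The authors deposited 1 table per organ with an identifier, an interval and an FPKM value for the same 33857 identifiers, called loci here, per the file headers. The submitters' processing notes name TopHat and, as genome build, TAIR10. Tool versions, the quantifier, the annotation and the FPKM denominator were not stated, so depth is unknown and no interval could be computed. The libraries are strand-specific per the series title, but the tables give no strand, so overlapping and antisense loci cannot be told apart; 3845 measured loci share a position. Positions are those of the files with 1 added to the start.

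Ratios were taken of FPKM + 1 in Python 3.11.15 with pandas 2.3.3, which understates the ratio of low loci, and were called at 4-fold. Libraries were not rescaled. A locus took a gene's name where it was alone at its position and exactly 1 gene of the TAIR10.1 gene table overlapped it by at least 50% in both senses, with that gene in no other locus. This named 26029 loci, of which 12780 were measured. Only the ratio and its 4-fold call were tested on simulated data, drawn at an assumed depth. Naming, lists, classes, windows, runs and rescaling were not part of that test.

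The comparison and the 56 gene lists were chosen with earlier results of these data known. After values were seen, symbols shared by several genes were left unmatched, 20 genes of another class were dropped from families and 3 mixed families were left out. Of the remaining lists, 50 had at least 5 measured members. Genes were named by rule: the 12 largest ratios each way among named loci of at least 20 FPKM, the largest per level and width class, 3 members per list by size and up to 2 against its median, and the 2 longest runs each way. Not all of these are printed. Other genes printed from the lists, the noncoding and chloroplast loci, and the loci listed at 0 were chosen after their values were seen. Alternatives changed the pseudocount, minimum, fold, scaling and loci used; the scaling by summed FPKM and the removal of loci at 0 were added after seeing the data. Promoter motifs were planned but are not analysed here.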

Additional observations from a re-analysis of the deposited data

How the results depend on the processing

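No paired analysis was possible because each organ has 1 library, which also leaves no replicate to leave out. The cause of the shifts below was not tested. The median log2 ratio of all loci was 0.06; it was 0 with no minimum, -0.10 with leaf divided by the median ratio and -0.42 with leaf scaled to the inflorescence sum. Of list medians, those of cytochrome P450, beta-glucosidase and auxin response factor (ARF) genes were 0 with no minimum. Without loci listed at 0, that of sugar transporters was 0.21 and that of aquaporins 0.01. Other list medians that changed sign with leaf scaled to the inflorescence sum were those of respiratory (0.28 to -0.18), NAC (0.30 to -0.31), bHLH (0.44 to -0.47), MADS (0.41 to -0.07) and IAA genes (0.08 to -0.39, and -0.08 with the median ratio). With a minimum of 20 FPKM they were those of cation exchangers (-0.48 to 0.32), ERF (-0.03 to 0.36) and aquaporins (-0.21 to 0.01). The CLE (-0.40 to 0.76) and ARR medians (-0.01 to 1.06) also changed sign there, but then rest on only 2 members each. With no minimum they were those of NAC (-0.05) and MADS (-0.07). With a pseudocount of 5, 870 loci were leaf-higher and 969 inflorescence-higher, and 31.3% of loci under 500 bp and 5.83% of those of at least 5000 bp were called. With a minimum of 20 FPKM, 997 were inflorescence-higher, fewer than the 1109 leaf-higher ones. With no minimum, 10.5% of loci under 500 bp and 8.57% of the widest class were called. A fold of 2 gave 3355 and 3455 loci and 27.2% of the widest class, and a fold of 8 gave 523 and 1207 loci and 3.91%. Scaling to the summed FPKM gave 838 leaf-higher loci and a leaf share of 11.7% of called loci at 5 to 10 FPKM. Without loci listed at 0, 42.6% of loci under 500 bp were called. Of the genes and loci named by rule, 207 were called. None of these could turn its sign, since the rescalings move a ratio by less than 4-fold and the other alternatives leave the sign. The call was lost by 13 of 202 under scaling to the summed FPKM, 8 of 206 under the median ratio and 63 under a pseudocount of 5. The uncalled ARR9 turned its sign under scaling to the summed FPKM. With a pseudocount of 0.1 or 5, the list median was -6.89 or -2.35 for SCR-like and LCR, -5.26 or -1.72 for RALF and 4.02 or 1.75 for CRK genes; at 20 FPKM that of vascular markers was 2.1. With no depth given, a low FPKM in a narrow locus may rest on very few fragments.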

Other observations

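Some lists not described above held members on both sides. Of 11 measured early light-induced and light-harvesting genes, 8 were higher in leaf and none in inflorescence; with leaf scaled to the inflorescence sum, 3 were higher in leaf and 1 in inflorescence. LHCA3 was at 2049 FPKM in leaf against 310 in inflorescence, whereas ELIP1, an early light-induced protein, was at 3.94 and 17.5 FPKM and LHCB4.3 at 52.7 and 92.5 FPKM. Of 14 measured aquaporins, 2 were higher in each organ, and with leaf scaled none was higher in leaf and 5 were in inflorescence. The plasma membrane aquaporins PIP2B and PIP2A were at 197 and 916 FPKM in leaf, compared with 41.9 and 222 FPKM in inflorescence, and TIP1;3, a tonoplast aquaporin known from pollen, was listed at 0 in leaf and at 21.3 FPKM in inflorescence.

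Of 12 measured cation exchangers and proton pumps, 4 were higher in inflorescence and 1 in leaf. CHX23 was at 2.61 FPKM in leaf against 67.1 in inflorescence, and the guard cell exchanger CHX20 at 23.8 and 3.15 FPKM. Of 15 measured beta-glucosidases, 4 were higher in leaf (2 with leaf scaled) and 3 in inflorescence, from BGLU9 at 36.1 and 2.91 FPKM to BGLU28 at 0.0427 and 5.51 FPKM. Of 15 measured respiratory genes, 2 were higher in leaf, neither of them with leaf scaled to the inflorescence sum: the alternative NAD(P)H dehydrogenase NDA1, at 10.3 and 1.29 FPKM, and the lipoamide dehydrogenase mtLPD1, a subunit shared with the photorespiratory glycine decarboxylase, at 334 and 75.2 FPKM.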
